A study of Mus musculus with 12 samples.

Results

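The difference between Bcl6KO and wild-type (WT) cells was estimated once over the stage 0 and stage 1 libraries together, with stage as a covariate. All 12 RNA libraries of the series entered, 6 labelled Bcl6KO and 6 labelled WT. The cells were invariant natural killer T (iNKT) cells, which recognise lipids on CD1d through a nearly fixed alpha chain, and were sorted from thymi of C57Bl/6J mice aged 4 to 5 weeks that had no treatment. Each genotype was sorted at stage 0 and at stage 1, with 3 libraries for each of the 4 groups. Stage 0 cells bound the tetramer and were TCRb+ CD24+ CD44-, and stage 1 cells were TCRb+ CD24- CD44-. The mutant carried a Cre transgene with floxed Bcl6 alleles, written CDCre;Bcl6F/F, and each sort pooled the thymi of 4 to 7 mice. The labels give neither the promoter in full nor whether WT mice carried Cre, nor whether the libraries within a group were made from different mice. The p-values thus measure spread among these libraries only, and some of it may be technical.

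BCL6 is a zinc finger protein with a BTB domain that represses transcription by recruiting corepressors such as NCOR1 and BCOR. It is best known for maintaining germinal centre B cells and follicular helper T cells. In the thymus, iNKT cells branch off at the double-positive stage, pass stage 0 soon after selection and then take on an innate-like program under the transcription factor PLZF, encoded by Zbtb16. The question put to the data was which genes kept the same genotype shift in both stages.

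The receptor and lineage markers of iNKT cells used for the check were at or above the floor of 3 counts in every library except Trbv1, a receptor segment at 0 counts in Bcl6KO stage 0 library 2. Cd3e, a chain of the T cell receptor complex, ranged from 819.8 to 1988 CPM (a gene's counts per 1e6 counts of its library after scaling), and Trav11, the invariant alpha segment, from 206 to 399 CPM. Cd24a followed the gates, at 149 CPM or more in the stage 0 libraries and 13.7 CPM or less in the stage 1 libraries, while Cd44 ranged from 0.199 CPM, under the floor, to 26.9 CPM. Library totals ran from 4129919 to 8038717 counts. Some libraries stood apart. In the Bcl6KO stage 0 libraries 14860 to 17734 genes were detected, against 18417 to 22028 in the other libraries. In them Sp100, a gene of nuclear bodies, took 10.8% to 23.9% of counts, against 0.0283% to 5.03% elsewhere (log2 fold change over both stages 2.80, edgeR adjusted p = 0.633). The Bcl6KO libraries numbered 2 of both stages had 402 and 133 CPM of Xist, the RNA of the inactive X chromosome, where the other libraries had 4645 to 8645 CPM. Y-linked genes summed to 587 and 234 CPM in those libraries. At stage 1 all Bcl6KO libraries (166 to 234 CPM) were above all WT libraries (63.8 to 71.7 CPM) in that sum, while at stage 0 the ranges of 74.4 to 587 and 54.9 to 95.3 CPM overlapped.

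Bcl6 (ENSMUSG00000022508, chromosome 16, 23965052 to 23988852, minus strand, GRCm38) itself was counted higher in the libraries labelled Bcl6KO. It stood at 373, 217 and 275 CPM in the WT libraries and 511, 657 and 652 CPM in the Bcl6KO libraries at stage 0, and 8.77, 4.15 and 8.61 against 14.7, 56.05 and 25.2 CPM at stage 1. The Bcl6KO libraries lay above the WT libraries at both stages with no overlap (log2 fold change 1.59, SE 0.34), and the averaged difference did not pass the quasi-likelihood test of edgeR after Benjamini-Hochberg correction (adjusted p = 0.305, unadjusted p = 3.85e-04). Which exons the floxed alleles lose is not stated in the labels, and the value is summed over all exons, so neither deletion nor labels are checked by it. Without both Bcl6KO libraries numbered 2, a choice made after seeing the data, the log2 fold change was 1.24 (edgeR adjusted p = 0.528).

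BCL6 is known to bind its own promoter and repress it in germinal centre B cells, which was not tested in these cells. The core letters of its recognition sequence, TTCCTNGAA, were searched on both strands in RefSeq promoter windows of the GRCm38.p6 assembly, from 250 bases before to 50 bases after each start. These letters also fit the broader STAT pattern TTCNNNGAA. Among all 27025 genes with a window 502 (1.86%) held a match, and among the 9970 tested genes with a window 151 (1.51%) did. Of the genes with libraries apart at both stages, defined below, 56 of the 108 higher ones had a window and 2 of these held a match. Of the 127 lower ones 81 had a window and 0 of these held a match. The matches were in Bcl6 (chr16:23981234-23981533, minus strand, 168 bases before the RefSeq start) and in Ncaph, a condensin subunit (chr2:127133905-127134204, minus strand, 198 bases before it). Both windows are shown, with the match in capitals, because the repressor's own gene is among the genes higher in its mutant. The RefSeq start of Bcl6 lies inside the longer gene model whose coordinates are given above. A match is a description of letters and not a measured binding site.
Bcl6: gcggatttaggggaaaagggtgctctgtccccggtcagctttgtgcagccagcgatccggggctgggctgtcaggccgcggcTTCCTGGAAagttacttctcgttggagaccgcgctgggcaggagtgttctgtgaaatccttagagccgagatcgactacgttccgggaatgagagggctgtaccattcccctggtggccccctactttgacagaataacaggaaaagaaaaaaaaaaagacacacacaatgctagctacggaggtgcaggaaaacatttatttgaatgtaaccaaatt
Ncaph: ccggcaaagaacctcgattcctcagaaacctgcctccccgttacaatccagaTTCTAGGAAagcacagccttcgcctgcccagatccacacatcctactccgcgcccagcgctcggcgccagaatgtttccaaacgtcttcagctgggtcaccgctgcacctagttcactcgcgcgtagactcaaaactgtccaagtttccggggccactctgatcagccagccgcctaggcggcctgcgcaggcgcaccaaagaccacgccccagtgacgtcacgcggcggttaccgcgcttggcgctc

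No gene passed the additive test. Of 15704 genes tested 0 had an adjusted p under 0.05 (0% of the genes, two-sided quasi-likelihood F-test of edgeR), while 1216 (7.74%) had an unadjusted p under 0.05, 605 (3.85%) higher and 611 (3.89%) lower in Bcl6KO. Other tools on the same libraries called 232 genes (DESeq2, 126 higher and 106 lower) and 3 genes (limma-voom with sample weights, all 3 higher). Testing whether the genotype effect differed by stage likewise called 0 genes in edgeR, with 1221 (7.78%) at an unadjusted p under 0.05, and DESeq2 called 130 for it. In the edgeR fit with 1 mean per group, stage 0 alone gave 3 genes past the threshold (0.0191%), all higher in Bcl6KO. They were Igfbp4 (stage 0 log2 fold change 3.66, adjusted p = 0.0409), Ccnd2 (1.64, adjusted p = 0.0340) and Camk1d, a calmodulin-dependent kinase (2.89, adjusted p = 0.0340). For the averaged effect no single gene is called, and the values below are levels and differences.

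A consistent shift was read from the libraries themselves. A gene counted as apart at both stages when all 3 Bcl6KO libraries lay above, or all 3 below, the 3 WT libraries at stage 0 and again in the same direction at stage 1. This held for 235 genes (1.50% of the tested genes), 108 higher (0.688%) and 127 lower (0.809%) in Bcl6KO. Another 64 genes (0.408%) were apart at both stages in opposite directions. At a single stage 1982 genes (12.6%) were apart at stage 0, of which 733 (4.67%) higher and 1249 (7.95%) lower. At stage 1 they were 2090 (13.3%), of which 922 (5.87%) higher and 1168 (7.44%) lower. Across all tested genes the log2 fold changes of the stages had a Spearman coefficient of 0.117 and a Pearson r of 0.127, with the same sign in 54.4% of genes. The genes share their libraries within a stage, so these coefficients are descriptions and carry no p. Under upper-quartile scaling, which moved the median log2 fold change of all tested genes from 0.00 to -0.11, the counts were 81 higher and 169 lower. Without both Bcl6KO libraries numbered 2, where fewer libraries had to separate, they were 253 and 298.

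**Figure D1:**
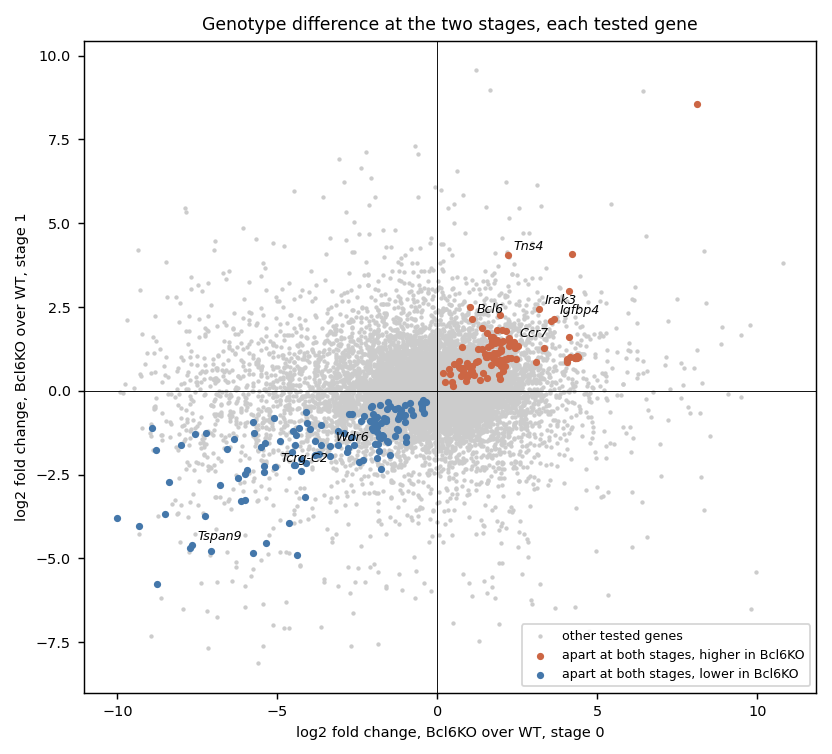
Each point is 1 of the 15704 tested genes, with its log2 fold change of Bcl6KO over WT at stage 0 on the horizontal axis and at stage 1 on the vertical axis. Genes with libraries apart in the same direction at both stages are coloured, 108 higher in the upper right and 127 lower in the lower left, and the lower ones reach further along the stage 0 axis.

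The genes on the higher side were mostly moderately expressed protein-coding genes. Of the 108, 90 were protein coding, the median log2 fold change was 1.50 (range 0.25 to 8.34, the highest a fitted value for a gene with 0 WT counts and no bound) and the median level was 20.9 CPM in WT stage 0 and 90.7 CPM in Bcl6KO stage 0. The 127 lower genes included 100 protein-coding ones, with a median log2 fold change of -2.07 (range -7.69 to -0.34) and median levels of 15.9 and 2.92 CPM in the same groups. The difference was larger at stage 0 than at stage 1 for 92 of the higher and 118 of the lower genes, by fitted size and without a test. Among the lower genes 22 had 0 counts in all 3 Bcl6KO stage 0 libraries, as did 619 (3.94%) of all tested genes. Gene detection was lowest and the Sp100 share highest in those same libraries, and the part of either in these differences was not tested. Under 5 other scalings and filters 80 of the 108 and 102 of the 127 stayed apart in every one.

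Igfbp4 (ENSMUSG00000017493, chromosome 11, 99041244 to 99054392, plus strand), a secreted protein that binds insulin-like growth factors, had the lowest p of all genes. It stood at 19.7, 18.5 and 23.03 CPM in WT stage 0 and 248, 249 and 277 CPM in Bcl6KO stage 0. At stage 1 the levels were 105, 26.7 and 176 CPM in WT and 388, 473 and 496 CPM in Bcl6KO. The gap was wide at both stages, and the WT stage 1 libraries were the most scattered group (log2 fold change 2.89, SE 0.41, edgeR adjusted p = 0.0948). It passed the threshold in 6 of 26 alternatives, with adjusted p between 1.52e-08 and 0.893, and 1 of the 6 was the fit without WT stage 1 library 3. Irak3, an inhibitor of Toll-like and interleukin 1 receptor signalling, stood at 11.7, 11.2 and 11.02 CPM in the WT libraries and 197, 29.8 and 79.9 CPM in the Bcl6KO libraries at stage 0, and 9.76, 4.15 and 5.33 against 44.7, 32.99 and 26.4 CPM at stage 1 (log2 fold change 2.80, SE 0.48, edgeR adjusted p = 0.227). WT levels were low in both stages, and 1 Bcl6KO stage 0 library lay far above the others. For Irak3 5.99% of exonic bases overlap another gene, whose reads may be included.

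Il21, the gene of interleukin 21, the cytokine of follicular helper T cells, was at 0, 7.09 and 14.96 CPM in WT stage 0 and 80.9, 93.5 and 83.5 CPM in Bcl6KO stage 0. Its stage 1 levels were 29.9, 22.7 and 34.3 CPM in WT and 49.1, 214 and 108 CPM in Bcl6KO (log2 fold change 2.81, SE 0.72, edgeR adjusted p = 0.338, with 8.92% of its exonic bases shared with another gene). Among genes of cell surface and movement, Ccr7, the chemokine receptor of maturing and recirculating T cells, stood at 13.1, 16.5 and 15.7 CPM in the WT libraries and 91.8, 88.2 and 57.3 CPM in the Bcl6KO libraries at stage 0, and 64.4, 15.01 and 38.2 against 98.7, 154 and 67.1 CPM at stage 1. The lowest Bcl6KO stage 1 library exceeded the highest WT one by little (log2 fold change 1.91, SE 0.40, edgeR adjusted p = 0.289). Tns4, a member of the tensin family, was at 14.5, 8.27 and 13.6 CPM in WT and 119, 26.5 and 24.2 CPM in Bcl6KO at stage 0. It showed its wider gap at stage 1, 25.7, 12.8 and 51.9 against 191, 866 and 433 CPM (log2 fold change 3.14, SE 0.59, edgeR adjusted p = 0.227). Pdlim1, an adaptor of actin fibres, was at 42.9, 28.2 and 36.4 CPM in the WT libraries and 81.7, 291 and 138 CPM in the Bcl6KO libraries at stage 0, and 56.2, 36.3 and 77.3 against 80.2, 281 and 144 CPM at stage 1. Its stage 1 groups nearly met (log2 fold change 1.91, SE 0.39, edgeR adjusted p = 0.289). Ptprc, the CD45 phosphatase of all leukocytes, differed little, with a log2 fold change of 0.36, although its libraries did not overlap at either stage. Ptprc stayed apart under 3 of 5 other scalings and filters.

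Genes of chromosome segregation were among the higher genes with the lowest p. Top2a, the topoisomerase that untangles replicated chromosomes, stood at 56.3, 134 and 83.5 CPM in the WT libraries and 458, 332 and 461 CPM in the Bcl6KO libraries at stage 0, and 316, 169 and 309.7 against 427, 524 and 578 CPM at stage 1 (log2 fold change 1.57, SE 0.30, edgeR adjusted p = 0.227). Aspm, a spindle pole protein, was tight within groups, at 38.96, 34.5 and 29.3 CPM in WT and 97.8, 83.2 and 90.6 CPM in Bcl6KO at stage 0. The stage 1 levels of Aspm were 62.6, 34.9 and 50.05 and 109, 131 and 108 CPM (log2 fold change 1.32, SE 0.25). Kif11, the kinesin that separates spindle poles, was at 60.4, 69.5 and 67.9 CPM in the WT libraries and 149.9, 213 and 373 CPM in the Bcl6KO libraries at stage 0, and 143, 62.8 and 132 against 212, 302 and 225 CPM at stage 1 (log2 fold change 1.51, SE 0.29). Arhgap11a, a GTPase-activating protein of dividing cells, gave a log2 fold change of 1.65 (SE 0.33) and H2afz, the histone variant H2A.Z, one of 0.73 (SE 0.16). For H2afz the levels were 351, 354 and 423 against 695, 588 and 672 CPM at stage 0 and 423, 263 and 393 against 554, 582 and 584 CPM at stage 1. In all of these genes the difference did not pass (edgeR adjusted p = 0.227 to 0.291), and the Bcl6KO libraries were the higher ones at both stages. Mbnl1, an RNA-binding regulator of splicing, was abundant and close within groups, at 950.1, 1034 and 897 against 1766, 2052 and 1565 CPM at stage 0 and 1372, 1937 and 1669 against 2391, 2084 and 2395 CPM at stage 1 (log2 fold change 0.68, SE 0.14, edgeR adjusted p = 0.289).

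**Figure D2:**
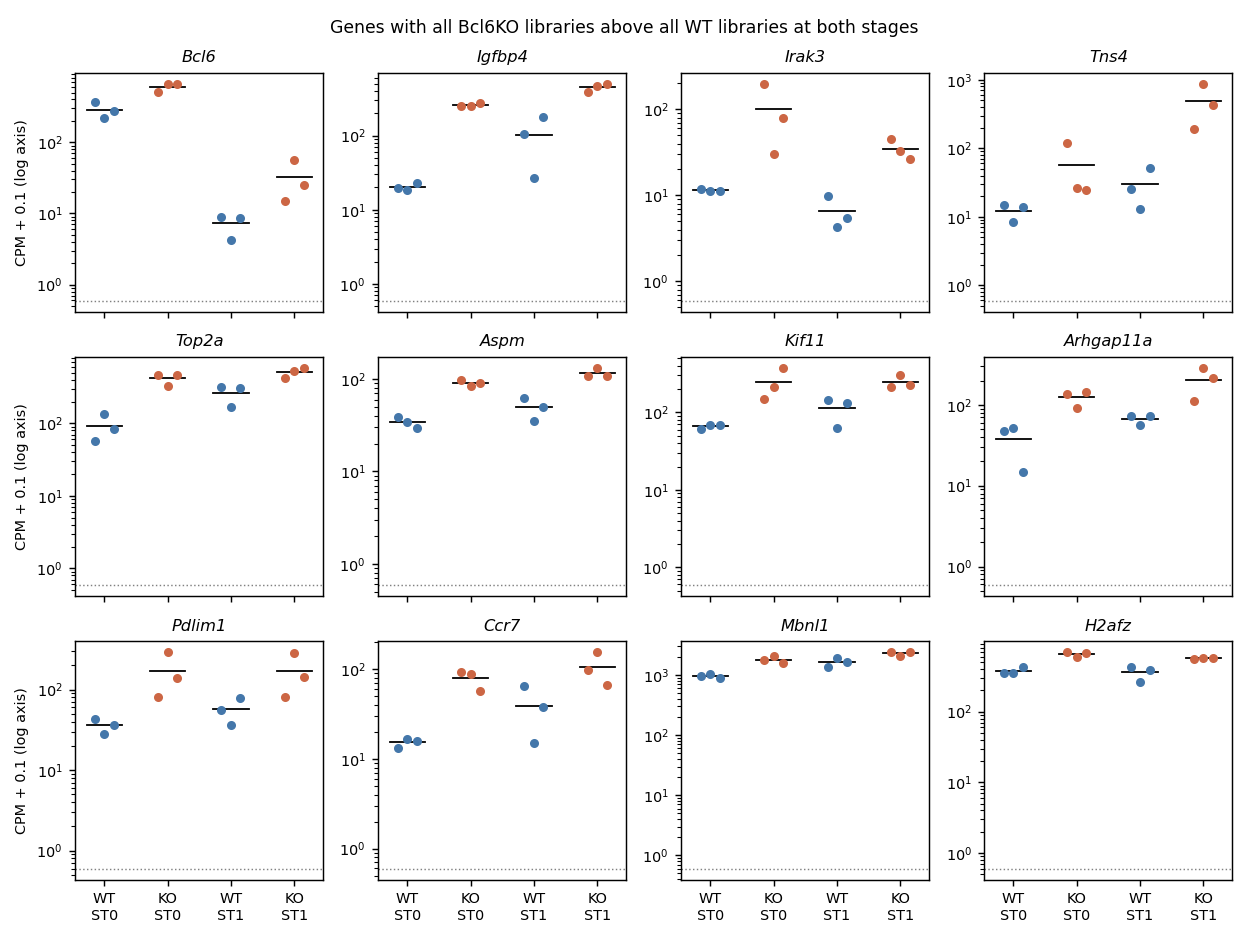
CPM plus 0.1 (log axis) of 12 genes with all Bcl6KO libraries above all WT libraries at both stages, with 1 point per library, blue for WT and orange for Bcl6KO, a black bar at each group's mean and a dotted line at the floor of 3 counts. Bcl6 and the other genes show no overlap between genotypes within a stage, and Igfbp4 runs from 18.5 CPM in WT stage 0 to 496 CPM in Bcl6KO stage 1.

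Of the listed cell cycle genes 40 were tested, 38 had a positive log2 fold change and 20 an unadjusted p under 0.05, all 20 higher. None passed the edgeR test after adjustment and 4 were apart at both stages, Top2a, Kif11, Cenpe and Cenpf, against 0.688% of all tested genes. The list's median was 1.06, against 0.00 for all tested genes of which 7859 were positive, and its summed level separated the genotypes at both stages. The sum was 1860.2 to 2173 CPM in WT and 4893 to 7168 CPM in Bcl6KO at stage 0. At stage 1 it was 2181 to 4538 CPM in WT and 5080.0 to 7997 CPM in Bcl6KO. Mki67, the proliferation antigen, had the lowest p of the list with a log2 fold change of 1.76 (edgeR adjusted p = 0.227) and was apart at stage 0 only, since the lowest Bcl6KO stage 1 library (1294 CPM) met the highest WT one (1302 CPM).

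Broader groups, put together after the values were seen and so without any test, held more such genes. Of 55 centromere, spindle and condensin genes 12 were apart and higher and 49 were positive, where 0.688% of all tested genes were apart and higher and 7859 of 15704 were positive. Kif14, a kinesin of cell division, had a log2 fold change of 2.85 (SE 0.72) among them, Cenpe, a kinetochore motor, 1.86 (SE 0.46), Ncaph 1.78 (SE 0.44) and Mad2l1, a spindle checkpoint protein, 1.34 (SE 0.31). Of 35 genes of DNA replication, checkpoint and repair 9 were apart and higher and 33 were positive. E2f2, a transcription factor of the G1 to S transition, had a log2 fold change of 1.72 (SE 0.52) and Pole, the catalytic subunit of a replicative polymerase, 1.08 (SE 0.32). Histone genes with symbols Hist1 to Hist4 gave 20 of 59 apart, all higher and all on chromosome 13, with 58 positive and a median of 1.51. Their copies are nearly identical and reads may be split between them in ways the sources used here do not give. The lowest adjusted p in these groups was 0.227.

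The lower side was led by genes at low levels. Tspan9, a tetraspanin of the cell membrane, stood at 2.19, 28.2 and 103 CPM in the WT libraries and 0.1996, 0 and 0.394 CPM in the Bcl6KO libraries at stage 0, and 11.4, 42.3 and 30.8 against 3.18, 0 and 0.1996 CPM at stage 1. Its WT stage 0 libraries spread over more than 1 order of magnitude, while the Bcl6KO libraries of that stage were all under the floor of 3 counts (log2 fold change -5.93, SE 1.26, edgeR adjusted p = 0.291). Wdr6, a WD repeat protein linked to tRNA methylation, was better measured, at 54.1, 28.2 and 62.0 CPM in the WT libraries and 5.19, 7.58 and 1.38 CPM in the Bcl6KO libraries at stage 0, and 38.9, 60.02 and 40.8 against 18.9, 11.1 and 14.6 CPM at stage 1 (log2 fold change -2.48, SE 0.54, edgeR adjusted p = 0.305). Its Bcl6KO libraries stayed below the lowest WT library at both stages. Zfp703, a zinc finger corepressor, had 0 counts in every Bcl6KO stage 0 library and was at least 43.8-fold lower there, measured against the mean floor of 3 counts per library, with 60.6, 4.73 and 11.6 CPM in WT. Without WT stage 0 library 1 the limit was 13.9-fold. At stage 1 it was at 6.58, 7.897 and 28.1 CPM in WT and 0.795, 0.994 and 1.198 CPM in Bcl6KO. Igsf9, an immunoglobulin superfamily adhesion gene, was likewise at 0 counts in Bcl6KO stage 0 and at least 8.96-fold lower. Of its WT stage 0 level most came from library 3 (0.795, 0.984 and 13.97 CPM), without which the limit was 1.52-fold.

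Zfp516, a zinc finger gene, and Lmbr1, a membrane receptor gene known as host of a limb enhancer, stood at 4.15 to 31.9 CPM and 6.78 to 23.03 CPM over the WT libraries and at no more than 0.799 and 1.79 CPM in Bcl6KO. The other named lower genes had log2 fold changes between -0.73 and -3.29. Pus10, a pseudouridine synthase, was at 62.2, 24.8 and 22.8 CPM in the WT libraries and 15.6, 5.498 and 7.09 CPM in the Bcl6KO libraries at stage 0, and 21.9, 66.7 and 29.1 against 15.7, 11.3 and 12.4 CPM at stage 1 (log2 fold change -1.77, SE 0.49, edgeR adjusted p = 0.388). Abcc1, an export pump for glutathione conjugates and leukotrienes, stood at 36.6, 43.9 and 20.1 CPM in the WT libraries and 7.99, 14.03 and 11.2 CPM in the Bcl6KO libraries at stage 0, and 65.8, 61.01 and 83.5 against 32.6, 44.1 and 35.1 CPM at stage 1 (log2 fold change -1.25, SE 0.36). Tcn2, the vitamin B12 carrier, was at 6.16, 6.69 and 4.92 CPM in the WT libraries and 1.597, 1.14 and 0.788 CPM in the Bcl6KO libraries at stage 0, and 8.77, 19.3 and 12.9 against 3.18, 4.37 and 2.196 CPM at stage 1 (log2 fold change -2.19, SE 0.63). In Abcc1 and Tcn2 the lowest WT library kept clear of the highest Bcl6KO library at each stage. Zfp787, a zinc finger gene, gave -1.57 (SE 0.45) and Sccpdh, a putative dehydrogenase, -3.29 (SE 0.95). Rpl23a, a protein of the large ribosomal subunit, was at 232, 237 and 168 CPM in the WT libraries and 151, 95.2 and 133 CPM in the Bcl6KO libraries at stage 0, and 319, 316 and 243 against 223, 189 and 125 CPM at stage 1, with 62.3% of its exonic bases shared with other genes. All had an edgeR adjusted p of 0.291 or more.

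**Figure D3:**
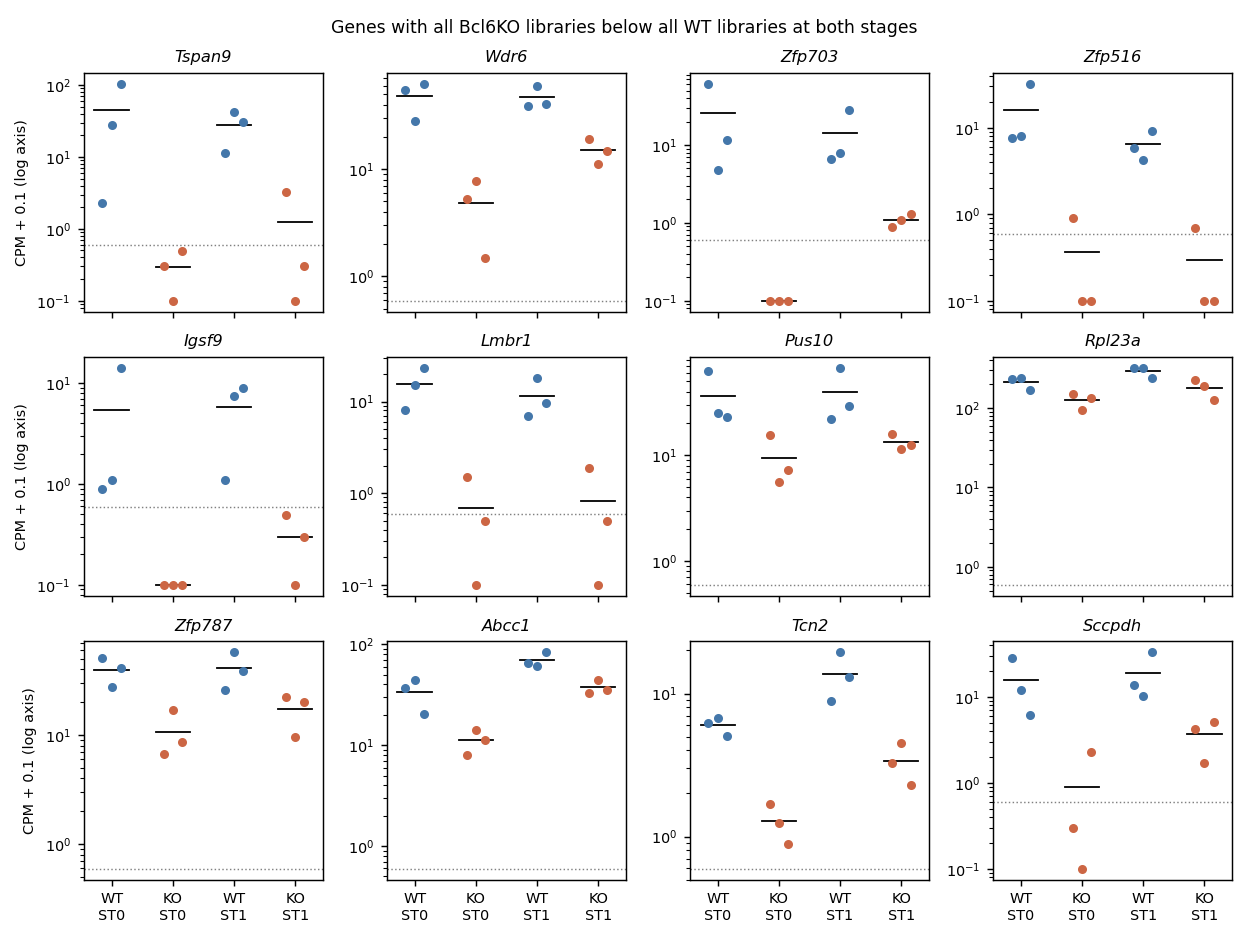
CPM plus 0.1 (log axis) of 12 genes with all Bcl6KO libraries below all WT libraries at both stages, drawn as 1 point per library, blue for WT and orange for Bcl6KO, with a black bar at the group mean and a dotted line at the floor of 3 counts. Several genes, such as Zfp703, sit at or under the floor in Bcl6KO stage 0, while Abcc1 and Rpl23a are well above it in every library.

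Tcrg-C2, a constant segment of the T cell receptor gamma chain, was the 1 gene of the T cell and iNKT subset lists that was lower without overlap at both stages. It stood at 31.01, 549 and 10.04 CPM in WT and 7.59, 5.88 and 3.94 CPM in Bcl6KO at stage 0, and at 535, 1734 and 969 and 209, 224 and 237 CPM at stage 1 (log2 fold change -3.61, SE 0.88, edgeR adjusted p = 0.318), with -1.57 when the Sp100 share was a covariate. The WT libraries varied widely, with library 2 highest at both stages. Of the 9 tested gamma-delta T cell markers 7 were negative, 6 had an unadjusted p under 0.05 (5 lower, 1 higher) and only Tcrg-C2 was apart at both stages. Over all tested genes 7.74% had an unadjusted p under 0.05 and 0.809% were apart and lower. The gamma-delta list's median was -2.88, or -1.54 without WT stage 0 library 2 and -0.96 with the Sp100 share as a covariate. Its summed level was 48.8 to 1196 CPM in WT stage 0, 24.3 to 223 CPM in Bcl6KO stage 0, 1666 to 4189.8 CPM in WT stage 1 and 833 to 1198 CPM in Bcl6KO stage 1. Trdc, the delta chain constant segment, had a positive value (log2 fold change 3.57, edgeR adjusted p = 0.560). In bulk libraries fewer cells of a type and less RNA per cell cannot be told apart. The sort took tetramer-binding TCRb+ CD44- cells, and the part of any gamma-delta T cells in these values was not tested.

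No effector gene of the iNKT subsets was apart at both stages except Ccr7, which is in the NKT2 list. NKT1 effector genes had a median of -2.04 over 17 tested members, 11 negative and 6 with an unadjusted p under 0.05, all 6 lower. That median was -0.68 without WT stage 0 library 2 and -0.19 with the Sp100 share as a covariate. Klrk1 and Klrd1, natural killer receptors, had log2 fold changes of -6.29 and -3.83 (edgeR adjusted p = 0.318 and 0.534). The other 6 NKT1 members were positive, among them the most abundant, Il2rb, an interleukin 2 receptor chain (0.55, edgeR adjusted p = 0.783). Summed NKT1 levels overlapped at stage 0 (191 to 421 CPM in WT, 194 to 582 CPM in Bcl6KO). At stage 1 they also overlapped (607 to 821 and 582 to 683 CPM). Over all tested genes 3.89% were lower at an unadjusted p under 0.05. All 10 tested NKT17 effector genes were negative, with a median of -1.17 and 3 at an unadjusted p under 0.05. The NKT17 median was -2.38 without WT stage 0 library 1, -2.32 without WT stage 0 library 3, -1.93 and -1.80 without Bcl6KO stage 0 libraries 1 and 3, and -0.73 with the Sp100 covariate. Maf, a transcription factor of NKT17 cells, was at 187, 353 and 506 CPM in WT stage 1 and 82.4, 61.8 and 142 CPM in Bcl6KO stage 1 with no overlap, but overlapped at stage 0 (log2 fold change -2.88, SE 0.78, edgeR adjusted p = 0.388). Maf is also in the gamma-delta list, where its value is the median, so these lists are not separate. Zbtb16 stood at 193, 209.7 and 96.8 CPM in the WT libraries and 94.6, 8.72 and 48.2 CPM in the Bcl6KO libraries at stage 0, and 409, 581 and 641 against 322, 305 and 440.4 CPM at stage 1. It was lower in Bcl6KO without overlap at stage 0, and at stage 1 1 Bcl6KO library exceeded the lowest WT one (log2 fold change -1.16, SE 0.43, edgeR adjusted p = 0.553).

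Genes known as targets of BCL6 repression were mixed, with a median log2 fold change of 0.74 at stage 0 and 0.03 at stage 1. Of 26 tested 16 were positive, 8 had an unadjusted p under 0.05, all 8 higher, and the median over both stages was 0.51 (0.28 without Bcl6KO stage 0 library 2), against 0.00 over all tested genes. Over all tested genes 3.85% were higher at an unadjusted p under 0.05 and 0.688% were apart and higher. Of the 26, Ccr7 and Chek1, a checkpoint kinase, were apart and higher at both stages. Chek1 stood at 14.3, 21.3 and 2.17 CPM in the WT libraries and 44.7, 66.9 and 32.1 CPM in the Bcl6KO libraries at stage 0, and 26.9, 32.4 and 25.6 against 36.5, 47.3 and 34.5 CPM at stage 1 (log2 fold change 1.20, SE 0.53, edgeR adjusted p = 0.628). Of 14 tested BCL2 family survival and death genes 9 were negative and 5 positive. Their median was -0.85, and -1.35 to -0.19 in 16 alternatives. Bcl2, the survival gene and the most abundant of them, was higher without overlap at stage 1, 77.9, 43.6 and 86.97 CPM in WT and 178, 460.1 and 343 CPM in Bcl6KO, and overlapped at stage 0 (log2 fold change 1.52, SE 0.38, edgeR adjusted p = 0.318). Ccnd2, a D cyclin, showed the reverse pattern, apart at stage 0 with 704, 696 and 759.9 against 1739.6, 2355 and 2627 CPM and overlapping at stage 1. It passed the stage 0 test (edgeR adjusted p = 0.0340) and not the averaged one (log2 fold change 0.92, SE 0.24, edgeR adjusted p = 0.368). The difference of Ccnd2 between the stages did not pass the interaction test (unadjusted p = 2.58e-04). Of the 15 tested corepressor genes, Bcl6 included, Bcl6 was the 1 apart at both stages, and the median was 0.02.

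The other lists held 0 to 2 genes apart at both stages. Over all tested genes 0.688% were apart and higher and 0.809% apart and lower. At such shares a count of 0 in a list of this size says little. Tfh-associated genes had 2 of 21 apart (Bcl6 and Il21), early iNKT transcription regulators 0 of 26, double-positive thymocyte genes 0 of 23, TCR-induced genes 0 of 28 and interferon-stimulated genes 0 of 37. Their medians were 0.30, 0.21, 0.16, 0.16 and -0.16. The Tfh median was 0.20, 0.16 and 0.45 without WT stage 0 library 2, WT stage 1 library 2 and WT stage 1 library 3, 0.10 without Bcl6KO stage 0 library 1 or Bcl6KO stage 1 library 2, and 0.06 with the Sp100 share as a covariate. Ndufb8, a subunit of respiratory complex I, was the 1 member apart, and lower, among 31 oxidative phosphorylation genes (log2 fold change -1.53, SE 0.54). Its stage 1 groups nearly met, with the lowest WT library at 20.5 CPM and the highest Bcl6KO library at 20.2 CPM. Ndufb8 stayed apart under 3 of 5 other scalings and filters. Icam2, an adhesion ligand of integrins, was the 1 of 20 in the adhesion list (-1.50, SE 0.82). The list of cytosolic ribosomal protein genes had a median of -0.02 at stage 0, -0.51 at stage 1 and -0.27 over both (-0.11 with the Sp100 share as a covariate), with 47 of 55 negative. None of the 55 was apart at both stages, but the list is not complete, and Rpl6, Rpl21 and Rpl23a, which it does not hold, were apart and lower. The early regulator Hivep3 was at 868, 717 and 1184 CPM in WT and 894, 1772 and 2227 CPM in Bcl6KO at stage 1 with overlap, and Icos, an inducible costimulatory receptor, was lower at stage 1 only (1539, 1736 and 1778 against 1073, 1007 and 1117 CPM). No listed gene passed the edgeR test.

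**Figure D4:**
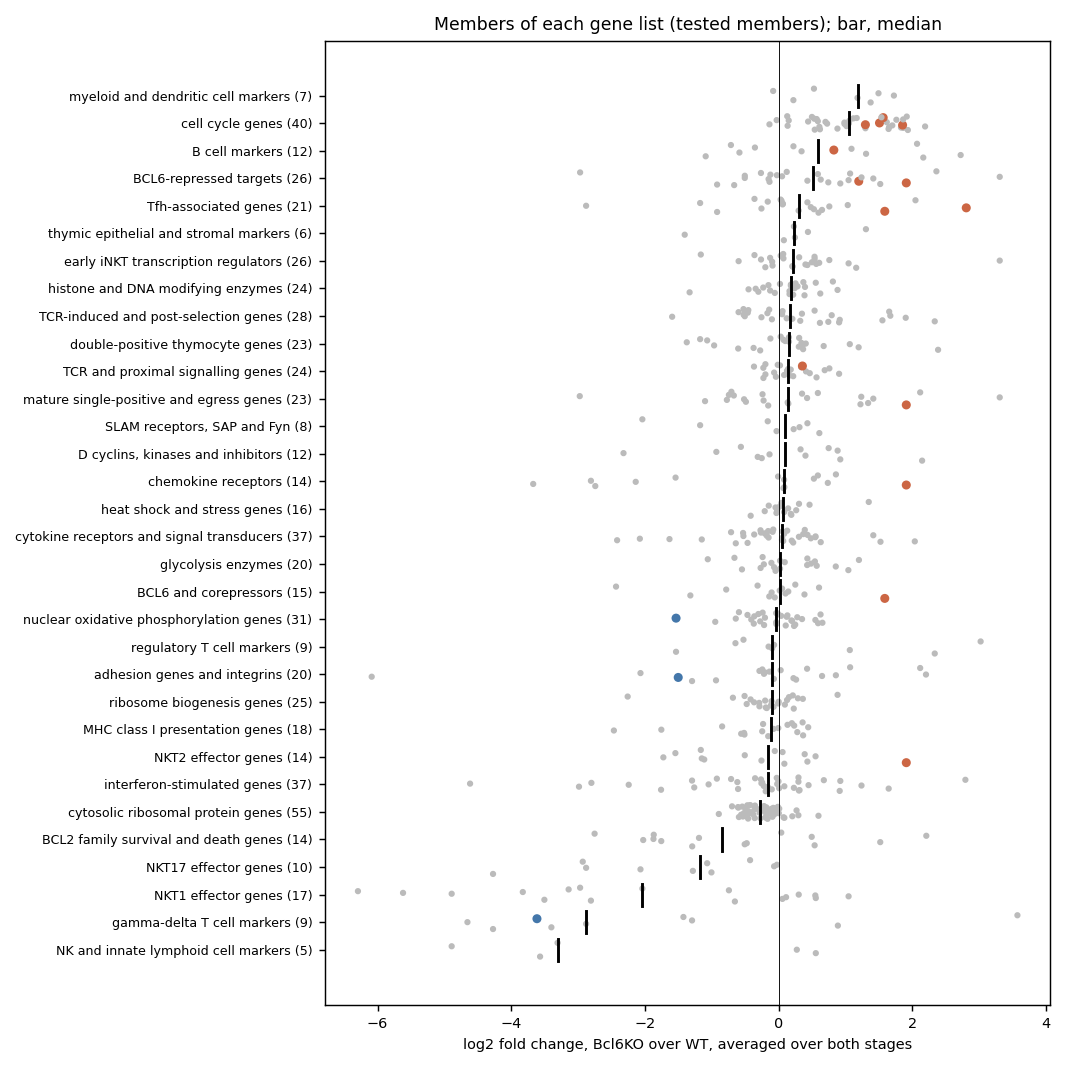
Each point is a tested member of a gene list at its log2 fold change of Bcl6KO over WT averaged over both stages, the black bar is the list's median and the number of tested members stands in brackets. Members with libraries apart at both stages are orange when higher and blue when lower, and the cell cycle list sits almost wholly to the right of 0 while the gamma-delta list lies mostly to the left.

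Markers of other cell types were present at different levels. Regulatory T cell markers summed to 597 to 1011 CPM in WT and 655 to 1062 CPM in Bcl6KO at stage 0, and to 364 to 709.99 and 348 to 579 CPM at stage 1. Much of this came from 1 member, Ikzf2, an Ikaros family gene. Its mean was 619 CPM in WT and 648 CPM in Bcl6KO at stage 0, and 401 and 335 CPM at stage 1. The 15 B cell markers summed to 84.04 to 276 CPM in WT and 169 to 303 CPM in Bcl6KO at stage 0, and to 133 to 202 and 73.5 to 156 CPM at stage 1. Fcer2a, the low-affinity IgE receptor of B cells, was apart and higher at both stages (116, 67.5 and 40.6 CPM in Bcl6KO stage 0 against 27.4, 24.2 and 37.8 CPM in WT). At stage 1 the groups nearly met (22.8, 22.1 and 26.8 against 17.5, 20.7 and 18.9 CPM). Fcer2a stayed apart under 3 of 5 other scalings and filters. Myeloid and dendritic markers summed to 63.2 to 292 CPM over all libraries, with Fcgr1, C1qc, Clec9a, S100a8 and S100a9 at 0 in every one. Of the 7 tested members 6 were positive, with a median log2 fold change of 1.18 (0.21 without Bcl6KO stage 0 library 1). None had an unadjusted p under 0.05 in edgeR. Xcr1, the most abundant tested member, ranged from 44.4 to 142 CPM. It was higher in Bcl6KO without overlap at stage 1 (61.4, 74.5 and 126 against 44.4, 47.4 and 60.7 CPM) and overlapped at stage 0. Epithelial and stromal markers summed to 197 to 402 CPM outside Bcl6KO stage 0, where they reached 1634 CPM in library 2, 1441 CPM of it from Pecam1, an endothelial adhesion gene. They had Krt5, Krt8, Pdgfra and Cdh5 at 0 in all. Erythroid markers summed to at most 31.9 CPM, and natural killer and innate lymphoid markers to at most 73.4 CPM with Ncr1 at 0. The part of these cells in the differences was not tested.

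Some genes with the same shift were neighbours. Top2a, Igfbp4, Tns4 and Ccr7 are consecutive tested genes on chromosome 11 (gene starts 98992943, 99041244, 99065678 and 99144196), and all 4 were apart and higher, while the next tested genes outside them, Rara and Smarce1, each had a log2 fold change of -0.09. Within 1.5 Mb on each side of Igfbp4 these 4 were the ones apart among 69 tested genes. Lpp, an adhesion and cytoskeleton gene, is a neighbour of Bcl6 on chromosome 16 and stood at 63.8, 42.3 and 95.7 CPM in the WT libraries and 222, 361 and 112 CPM in the Bcl6KO libraries at stage 0, and 85.7, 79.6 and 106 against 177, 139.9 and 210.03 CPM at stage 1 (log2 fold change 1.37, SE 0.32, edgeR adjusted p = 0.318). On chromosome 3 the noncoding RNA Gm38326 (60788361 to 60794730), outside the naming rule and chosen after its values were seen, was downstream of Mbnl1. It had 0 counts in all 6 WT libraries and 14.6, 3.79 and 2.17 CPM in Bcl6KO stage 0 and 14.5, 5.37 and 7.79 CPM in Bcl6KO stage 1 (edgeR adjusted p = 0.227). On chromosome 9 Wdr6 and its neighbour Dalrd3, also linked to tRNA methylation, were both lower (log2 fold change -1.52, SE 0.47 for Dalrd3). The models of Wdr6 and Dalrd3 share 9.20% and 15.6% of their exonic bases with other genes, so their counts may not be separate. By chromosome, 34 of 599 tested genes on chromosome 13 (5.68%) were apart at both stages, against 1.50% of all tested genes. Of the 34, 30 were higher, 20 being the histone genes and 10 predicted microRNA models in the histone clusters. These 30 count among the 108 higher genes. The 10 models had log2 fold changes of 2.51 to 2.69. How reads were assigned among them and the histone genes is not given, so they may not be separate.

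**Figure D5:**
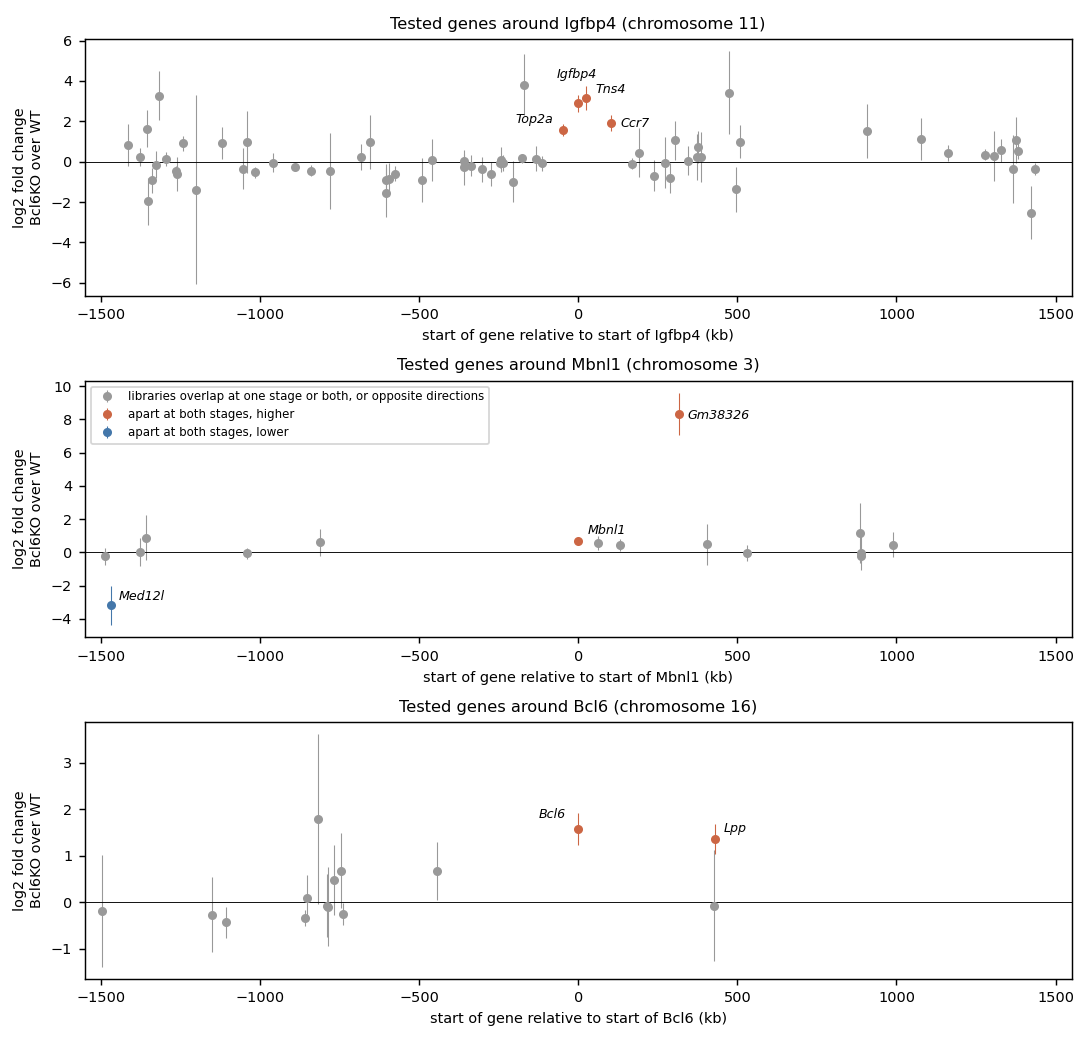
Log2 fold change of Bcl6KO over WT averaged over both stages, with bars of 1 SE, for every tested gene within 1.5 Mb of Igfbp4, Mbnl1 and Bcl6, against the distance of the gene's start from that gene's start in kb. Genes apart at both stages are orange when higher and blue when lower. Around Igfbp4 the 4 orange genes sit together, with the next grey gene on each side close to 0. Other grey genes of that window spread from -2.54 to 3.81.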

How the data were processed

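The authors deposited unnormalized read counts for genes, with 1 table of 48672 Ensembl gene IDs for each library. The build was mm10 and the tools named are Bowtie2, TopHat2, bcl2fastq and DESeq, per the submitters' processing notes, in no stated order. Nothing used here states their versions, the counting program or whether strand was used. Symbols and coordinates came from GENCODE M21 on that build, for 48312 IDs.

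Counts were scaled by TMM and tested with edgeR 4.0.16 (R 4.3.3) by the robust quasi-likelihood F-test on stage + genotype, over the 15704 genes passing filterByExpr by group, with Benjamini-Hochberg adjustment at 0.05. CPM are on the TMM-scaled library size. SEs were derived from the fold change and its F statistic (|log2 fold change| over root F). Undetected genes were bounded by 3 counts per library, or 0.569 to 0.615 CPM. These floors cover counting error only. No 2 libraries of a group agreed within sampling noise (chi-square per gene 27.6 to 170). Stage values and the interaction came from a fit with 1 mean per group. DESeq2 1.42.0 and limma 3.58.1 served as alternatives. The procedure was tested on simulated data.

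The members and the 34 gene lists were chosen with earlier results of these data known. Named genes followed a rule: Bcl6, Zbtb16, Cd24a, Cd44 and Sp100, genes past the test (none), up to 12 per direction by lowest p among those apart at both stages with a mean of at least 5 CPM in the higher genotype at both, and up to 2 members per list that were apart, or its most abundant member. Pseudogenes, predicted models, antigen receptor segments, Xist, Tsix, Y-linked and mitochondrial genes were barred from the ranked picks. Genes outside the rule (Camk1d, Mki67, Klrk1, Klrd1, Trdc, Kif14, Cenpe, Ncaph, Mad2l1, E2f2, Pole, Lpp, Gm38326, Dalrd3 and those of the closing section) were chosen after their values were seen. Accessibility (ATAC-seq) data named in the design text were not analysed here. For genes named with an overlap, reads of the other gene cannot be told apart where strand was not used; the share was above 5% for Irak3, Wdr6, Zfp703 (13.5%), Rpl23a, Maf (5.34%), Il21, Bcl2 (6.09%), Ccnd2 (7.87%) and Dalrd3.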

Additional observations from a re-analysis of the deposited data

How the results depend on the processing

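The count of 0 genes past the additive test held under 2 other scalings, a filter at 5 CPM in 3 libraries, no robust estimation, summed libraries, Sp100 left out or its share as a covariate, and without both Bcl6KO libraries numbered 2. It was 3 with no low-count filter, 232 with DESeq2, 3 with limma-voom and sample weights, 1 with 1 mean per group and 2 with same-numbered libraries as one source (limma-voom). Leaving out 1 library gave 0 to 1, the 1 being without WT stage 1 library 3. With the replicate number as a block the count was 0 (1102 at an unadjusted p under 0.05) and the interaction count 0. Whether same-numbered libraries share a source is not labelled. Between genotypes at the same stage their deviations correlated at -0.0750 to 0.104, against -0.227 to 0.160 for differently numbered libraries. Between stages of a genotype the values were 0.000710 to 0.120, against -0.114 to 0.0487. Correlations this weak cannot decide whether libraries are paired, and the main fit treats them as unpaired. Both Bcl6KO libraries numbered 2 had little Xist. The interaction count was 7 with no filter, 130 with DESeq2 and 0 in each other fit run for it, leave-one-out fits included. The count of 235 genes apart at both stages was 229 to 270 under other scalings and filters, 302 to 532 without 1 library and 551 without both Bcl6KO libraries numbered 2. Removing a library can only leave fewer libraries to separate. The count passed 1.5 times 235 without WT stage 0 library 1 or 3 (380 and 395), WT stage 1 library 3 (411), Bcl6KO stage 0 library 1, 2 or 3 (419, 364 and 354) and Bcl6KO stage 1 library 1 or 3 (532 and 366). Of the named genes other than Igfbp4, Top2a also passed with no filter and Tns4 with sample weights, and all other passes came from DESeq2. Leaving out both Bcl6KO libraries numbered 2 was chosen after seeing the data. At the depth of these libraries 3 counts are 0.569 to 0.615 CPM, and 22 of the 127 lower genes had 0 counts throughout Bcl6KO stage 0.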

Other observations

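Some enzymes that build selectin ligands were among the lower genes. Fut7, a fucosyltransferase, Gcnt1, the core 2 branching enzyme, and St3gal4, a sialyltransferase, modify glycans such as those of PSGL-1. Gcnt1 stood at 21.3, 5.51 and 1.38 CPM in the WT libraries and 0.599, 0 and 0 CPM in the Bcl6KO libraries at stage 0, and 34.3, 36.7 and 32.6 against 16.7, 0.596 and 1.996 CPM at stage 1 (log2 fold change -3.68, SE 1.13, edgeR adjusted p = 0.428). St3gal4 was at 18.1, 8.27 and 15.4 CPM in the WT libraries and 0, 0.569 and 5.91 CPM in the Bcl6KO libraries at stage 0, and 15.1, 11.8 and 21.7 against 6.36, 3.98 and 8.19 CPM at stage 1 (log2 fold change -2.02, SE 0.88, edgeR adjusted p = 0.616). Fut7 was at 11.2, 14.02 and 5.13 CPM in WT and 3.58, 0 and 4.39 CPM in Bcl6KO at stage 1 and at or under the floor at stage 0 in both. Of 12 tested genes of this group, put together after the values were seen, 3 were apart and lower, 0 apart and higher, and 7 negative, where 0.809% of all tested genes were apart and lower and 7859 of 15704 were positive. Selplg, the gene of PSGL-1 itself, leaned the other way (log2 fold change 1.07, edgeR adjusted p = 0.674).

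Pus1, Pus7 and Pus10, pseudouridine synthases that modify RNA, were each lower at both stages, 3 of 13 tested genes of that enzyme group, which was also put together after the values were seen. Over all tested genes 0.809% were apart and lower. Of the 13, 5 were positive, and Rpusd3 had the largest value of the group (log2 fold change 2.97, edgeR adjusted p = 0.469). Pus7 stood at 32.4, 33.1 and 64.4 CPM in the WT libraries and 29.1, 0 and 9.84 CPM in the Bcl6KO libraries at stage 0, and 54.998, 55.7 and 45.1 against 24.6, 26.2 and 12.2 CPM at stage 1 (log2 fold change -1.52, SE 0.75). For Pus1 30.1% of exonic bases are shared with another gene. Among 75 tested Rpl and Rps genes, 62 were negative with a median of -0.29, and 3 were apart and lower, Rpl6 (-0.47), Rpl21 (-0.45) and Rpl23a. Kdm5d, on the Y chromosome, was apart and higher in Bcl6KO at both stages (32.995, 42.9 and 26.6 CPM in the WT libraries and 44.5, 278 and 49.03 CPM in the Bcl6KO libraries at stage 0, and 32.1, 30.998 and 32.2 against 57.8, 98.8 and 52.9 CPM at stage 1), and its highest libraries were the Bcl6KO libraries numbered 2 with little Xist. Summed Y-linked genes were also above WT in every Bcl6KO stage 1 library.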
